A study of Mus musculus with 6 samples.

Results

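The 95 genes described here belong to the nuclear part of the respiratory chain and the ATP synthase, without covering all of it. They were taken from the deposited table by symbol, as the rows that begin with Nduf (complex I), are Sdha to Sdhd (complex II), begin with Uqc (complex III), Cox4 to Cox8 (complex IV) or Atp5 (complex V, the ATP synthase), and that have a value in all 6 libraries. They are 95 of 20323 genes with values, with 48 in complex I, 4 in complex II, 10 in complex III, 16 in complex IV and 17 in complex V. Another 3 rows with such symbols, Cox7b2, Cox8c and Uqcr11, were blank. By name, 82 of the 95 are subunits, 11 are assembly factors (Ndufaf and Uqcc genes) and 2, Ndufs6b and Ndufb11b, are copies of subunit genes.

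Each library, treated here as 1 mouse, came from the hippocampus, as GFP-positive cells pulled out by magnetic sorting with an antibody to GFP. The mice carried Nestin-CreERT2, an inducible Cre recombinase driven by Nestin regulatory sequence, and a membrane GFP reporter at Rosa26, which labels progenitor cells that express Nestin when the inducer is given, and their progeny. All 6 mice had eaten cuprizone, a copper chelator that strips myelin, for 10 weeks and had then recovered for 4 weeks. In addition 3 mice received neuregulin 1 beta 1 (Nrg-1β1), a ligand of the ErbB receptors, and 3 received vehicle, 0.1% bovine serum albumin in saline. The dose of 60 per kg per day is given in micrograms by the series description and in grams by the sample labels, so its unit is uncertain. The ages of the mice are not given in the labels.

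Complexes I and II pass electrons from NADH and succinate to ubiquinone, complex III passes them to cytochrome c and complex IV to oxygen. Complexes I, III and IV pump protons across the inner mitochondrial membrane, and the ATP synthase uses the gradient to make ATP. Most of the subunits are nuclear-encoded, while a core set is made in the mitochondrion from its own genome. Neural stem cells are known to raise oxidative phosphorylation as they leave quiescence and differentiate, and copper is a cofactor of complex IV.

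Promoters of many of these genes hold binding motifs of NRF1, GABPA (NRF2) or YY1, factors long linked to their joint transcription. RefSeq promoter windows, 250 bases before to 50 after the start, were found for 77 of the 95 genes on GRCm38.p6. Each window was searched on both strands for the letters CGCANGCGC (NRF1), CCGGAAG (GABPA), AAGATGGC (YY1) and TCAAGGTCA (estrogen-related receptors, ERR). NRF1 letters were in 32.5% of the members' windows, against 7.12% of the windows of all 27025 genes in the reference table and 11.6% of those of the 14806 analysed genes with a window. GABPA letters were in 23.4%, against 9.93% and 15.1%. YY1 letters were in 15.6%, against 3.19% and 4.10%, and ERR letters were in 2 members. Any of the first 3 was found in 45 members, or 58.4%, against 17.9% of the reference table and 26.8% of analysed genes. A few windows are printed because their genes recur in the results. Ndufb11 and Uqcrh were the members with the smallest p between the groups, Sdha varied little within either group (SD 0.05 in Nrg-1β1 and 0.06 in vehicle, n = 3 each), and Uqcc2 had the largest difference among the assembly factors. Capitals mark the matched letters, and Ndufb11 has none. Ndufb11 lies at chrX:20617570-20617869, Uqcrh at chr4:116075021-116075320, Sdha at chr13:74350191-74350490 and Uqcc2 at chr17:27133842-27134141, all on the minus strand.
Ndufb11: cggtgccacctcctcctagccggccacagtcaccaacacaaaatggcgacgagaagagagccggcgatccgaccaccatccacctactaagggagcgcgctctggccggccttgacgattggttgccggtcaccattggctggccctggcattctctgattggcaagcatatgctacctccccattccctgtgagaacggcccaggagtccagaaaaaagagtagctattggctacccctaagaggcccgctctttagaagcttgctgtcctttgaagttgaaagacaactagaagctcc
Uqcrh: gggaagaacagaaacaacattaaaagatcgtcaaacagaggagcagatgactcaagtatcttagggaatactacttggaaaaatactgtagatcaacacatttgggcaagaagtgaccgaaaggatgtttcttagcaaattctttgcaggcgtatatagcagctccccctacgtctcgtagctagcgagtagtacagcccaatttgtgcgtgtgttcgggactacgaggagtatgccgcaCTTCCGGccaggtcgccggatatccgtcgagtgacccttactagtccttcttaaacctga
Sdha: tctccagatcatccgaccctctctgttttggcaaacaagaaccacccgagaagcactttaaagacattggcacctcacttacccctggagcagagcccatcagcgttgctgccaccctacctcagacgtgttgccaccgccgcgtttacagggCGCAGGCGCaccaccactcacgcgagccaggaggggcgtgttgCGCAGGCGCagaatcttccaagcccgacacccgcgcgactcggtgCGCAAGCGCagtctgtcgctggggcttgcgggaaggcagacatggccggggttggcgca
Uqcc2: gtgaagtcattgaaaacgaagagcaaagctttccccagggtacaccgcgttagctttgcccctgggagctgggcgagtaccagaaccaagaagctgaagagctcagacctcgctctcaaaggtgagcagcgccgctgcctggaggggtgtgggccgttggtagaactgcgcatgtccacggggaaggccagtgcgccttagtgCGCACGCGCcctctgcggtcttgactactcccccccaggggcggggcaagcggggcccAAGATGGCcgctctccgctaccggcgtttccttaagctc
The Uqcrh match is GABPA on the opposite strand, Sdha holds 3 NRF1 matches and Uqcc2 an NRF1 and a YY1 match, with no overlap between them. The median difference between the groups was 0.69 on the log2 scale for the 25 members with NRF1 letters and 0.31 for the 52 without. It was 0.56 with and 0.37 without GABPA letters, and 0.18 with and 0.51 without YY1 letters. These values describe the windows and were not tested.

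Depth differed between the groups. The Nrg-1β1 libraries held 567073, 662909 and 1327003 reads, and the vehicle libraries 72953034, 1075813 and 47076006 reads, as recovered from the deposited values. Of the 95 members, 61 had at least 10 reads in every library and 87 had a read in every library, and 9 had fewer than 10 reads over the 3 Nrg-1β1 libraries together. The cells are labelled as neural progenitors. All 13 progenitor markers were detected and together took 0.0814% to 0.110% of reads in Nrg-1β1 libraries and 0.0578% to 0.0863% in vehicle libraries. Nes, the gene whose promoter drives the Cre, had 6, 9 and 9 reads in the Nrg-1β1 libraries and 1518, 23 and 3869 in the vehicle libraries. Eomes, a marker of intermediate progenitors, had 1, 0 and 0 reads in the Nrg-1β1 libraries and 77, 4 and 52 in the vehicle libraries. On the depth-normalized scale used below these 2 genes were lower in Nrg-1β1, while 7 of the 13 markers were higher. Markers of the oligodendrocyte lineage, neurons and astrocytes were present in all libraries, so the label does not describe all of the RNA. The libraries also differed in sex-linked transcripts. Xist, the RNA of the inactive X chromosome, had 2, 3 and 1 reads in the Nrg-1β1 libraries and 3255, 216 and 1045 in the vehicle libraries. For Ddx3y, a gene of the Y chromosome, the Nrg-1β1 libraries held 29, 22 and 15 reads and the vehicle libraries 82, 1 and 1994. Vehicle library 3 thus held both transcripts, at log2 values of 6.07 for Xist and 6.96 for Ddx3y. Sex is not in the labels, and whether that library holds RNA of 1 animal only was not tested. Sex, depth and treatment therefore cannot be fully told apart, and 3 members (Ndufa1, Ndufb11 and Cox7b) lie on the X chromosome.

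Respiratory chain and ATP synthase transcripts tended to lie higher after Nrg-1β1, but few passed the test. With limma on all genes (Benjamini-Hochberg adjusted p under 0.05), 5 of 95 members rose and 0 fell, while 0.438% of all genes were called higher and 0.625% lower. The 5 were Ndufb11, Ndufa12, Uqcrh, Cox5a and Atp5b, at least 1 in each complex except complex II. Differences are Nrg-1β1 minus vehicle, and the scale throughout is log2(normalized count + 4), on which the change of a gene with low counts comes out too small. The difference was above 0 for 70 of 95 members, against 52.2% of all genes, and its median was 0.36, against 0.03 over all genes. At an unadjusted p under 0.05, 25 members were higher and 1 was lower, where 6.15% and 6.86% of all genes were, and limma-voom on the recovered reads called 0 members in either direction. All 3 Nrg-1β1 libraries lay above all 3 vehicle libraries in 20 members and below them in 1, where 7.37% and 10.4% of all genes did so. In bulk RNA, a different number of cells of a type and a different amount of RNA per cell cannot be told apart.

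The 5 calls depended on which libraries were included, and a fit with fewer libraries has less power for every gene. None passed when any of the 3 Nrg-1β1 libraries, vehicle library 2 or vehicle library 3 was left out, and without vehicle library 1 the 4 calls were Ndufb11, Uqcrh, Cox5a and Cox7c. The median over the members was 0.46, 0.39 and 0.21 without Nrg-1β1 libraries 1, 2 and 3, and 0.70, 0.27 and 0.20 without vehicle libraries 1, 2 and 3. Without both deep vehicle libraries the median was 0.59 and 77 members were positive. That fit leaves the shallow vehicle library 2 alone, so the spread within vehicle cannot be estimated and calls are not given. All-gene medians of the fits with libraries left out are not given here. The all-gene median can move with the setting (0.03 in the main fit, 0.25 after centring), so a shift of all genes may enter these member values.

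**Figure D1:**
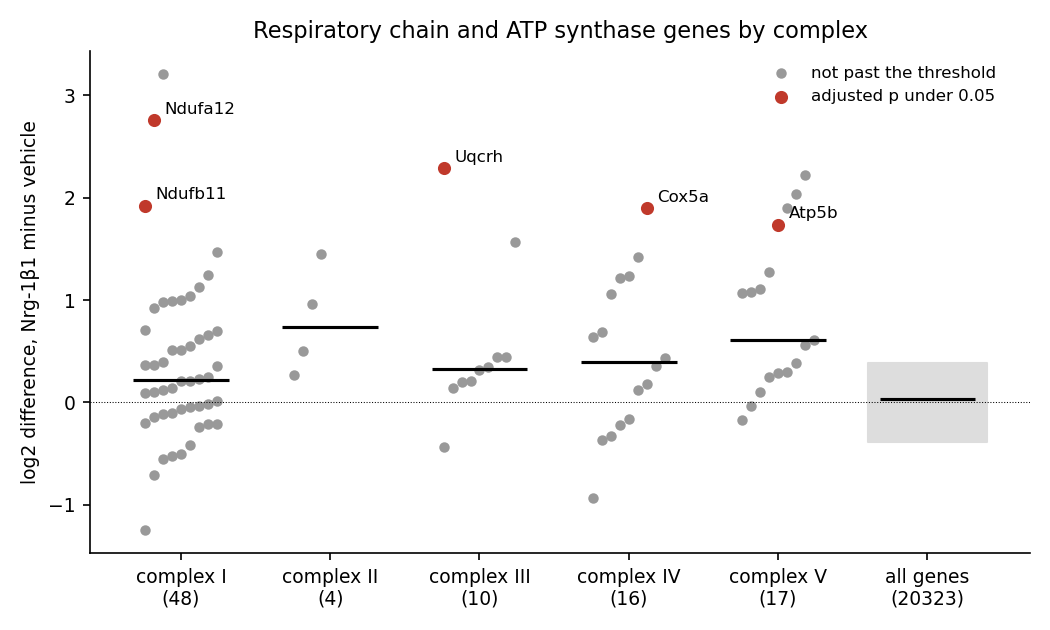
Log2 difference (Nrg-1β1 minus vehicle, vertical axis) of each member, grouped by complex, with the number of genes in brackets. Black lines are medians, red points the 5 members with an adjusted p under 0.05, and the grey box the middle 50% of all 20323 genes; the medians of the complexes run from 0.22 to 0.73, against 0.03 for all genes.

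In complex I, 2 of 48 members rose and 46 did not pass, with a median of 0.22 and 31 positive. Ndufb11, which encodes a membrane-arm subunit, had log2 values of 8.61, 9.20 and 8.60 in the Nrg-1β1 libraries and 7.36, 6.85 and 6.43 in the vehicle libraries. The groups did not overlap, and the difference was 1.92 ± 0.31 (SE, adjusted p = 0.00477, limma). It rested on 75, 114 and 126 reads in the Nrg-1β1 libraries and 2648, 36 and 1356 in the vehicle libraries. The other X-linked members, Ndufa1 and Cox7b, differed by -0.21 and 0.68 and did not pass. Ndufa12, an accessory subunit of the matrix arm, had log2 values of 6.67, 6.73 and 4.26 in Nrg-1β1 libraries and 3.63, 3.35 and 2.41 in vehicle libraries. Its difference of 2.76 ± 0.63 (SE, adjusted p = 0.0405, limma) came from few reads, 19, 20 and 5 in the Nrg-1β1 libraries and 139, 2 and 22 in the vehicle libraries.

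Core subunits of the matrix arm, the arm with the redox centres, did not pass. Ndufs3, which joins the upper and lower part of that arm, had log2 values of 6.04, 6.42 and 6.15 in Nrg-1β1 libraries and 5.18, 4.99 and 4.04 in vehicle libraries (difference 1.47, adjusted p = 0.0923, limma). Ndufv2, which holds an iron-sulfur cluster, differed by 1.24 and Ndufs8, another iron-sulfur subunit, by 0.65. Ndufv1, which binds NADH, differed by 0.21, while Ndufs1 and Ndufs7, which also hold iron-sulfur clusters, differed by -0.04 and -0.11. These subunits thus ran from -0.11 to 1.47, within the range of -1.25 to 3.21 over all members.

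The highest difference in complex I, and among all 95 members, belonged to Ndufa8, an accessory subunit with twin cysteine motifs, and did not pass. Its log2 values were 9.87, 9.99 and 4.47 in Nrg-1β1 libraries and 5.82, 3.73 and 5.15 in vehicle libraries (difference 3.21 ± 0.95, SE, adjusted p = 0.109, limma). Nrg-1β1 library 3 lay among the vehicle libraries, with 6 reads against 181 and 199 in the other 2 Nrg-1β1 libraries. Ndufb9 also varied within the groups, at 9.17, 9.61 and 12.26 in Nrg-1β1 libraries and 10.33, 11.004 and 9.27 in vehicle libraries. The 2 lowest members were Ndufa4l2 and Ndufaf2. Ndufa4l2, the hypoxia-inducible relative of Ndufa4, had 0 reads in all 3 Nrg-1β1 libraries and 122, 1 and 110 in the vehicle libraries, so its pooled level was at least 1.67-fold lower in Nrg-1β1 (floor of 3 reads over the group, counting error only). The pooled vehicle level rests mostly on both deep vehicle libraries, while vehicle library 2, nearest in depth to the Nrg-1β1 libraries, had 1 read. Ndufa4l2 did not pass (adjusted p = 0.181, limma), and Ndufa4 itself, which is counted here by its name although it is now placed in complex IV, differed by 0.51. Ndufaf2, an assembly factor, differed by -0.71 on 2, 2 and 13 reads in Nrg-1β1 libraries. Without vehicle library 3 the complex I median was -0.04, so its direction rested on that library.

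Complex II, succinate dehydrogenase, also belongs to the citric acid cycle. All 4 members had a positive difference, the median was 0.73 and none passed (limma). At an unadjusted p under 0.05 there were 2, both higher, and voom called 0. With quantile normalization 3 of the 4 were positive and the median was 0.62. Sdhc, a membrane anchor, had log2 values of 9.26, 9.18 and 8.88 in Nrg-1β1 libraries and 8.49, 8.23 and 7.71 in vehicle libraries (difference 0.96 ± 0.29, SE, adjusted p = 0.112, limma). Sdhb, the iron-sulfur subunit, differed by 0.50. Sdha, the flavoprotein, was nearly constant within each group, at 9.94, 10.04 and 9.99 in Nrg-1β1 libraries and 9.74, 9.66 and 9.78 in vehicle libraries. Its groups did not overlap, yet the difference was only 0.26 (95% interval -0.31 to 0.83). Limma's moderated variance, which borrows from genes of similar level, sets the width of that interval (SE 0.27). The gene's own SDs were 0.05 in Nrg-1β1 and 0.06 in vehicle. Sdhd, the other anchor, had 2, 4 and 0 reads in Nrg-1β1 libraries and 1, 0 and 4 in vehicle libraries, so its value of 1.45 rests on almost no reads.

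In complex III, 1 of 10 members rose, with a median of 0.33 and 9 positive. Uqcrh, the acidic hinge protein that helps cytochrome c dock, had log2 values of 9.97, 10.28 and 8.998 in Nrg-1β1 libraries and 8.29, 7.90 and 6.20 in vehicle libraries. The groups did not overlap, and vehicle library 3 was the lowest of the 6 (difference 2.29 ± 0.44, SE, adjusted p = 0.0158, limma). Uqcc2, an assembly factor needed for cytochrome b synthesis, had 6.94, 7.39 and 7.01 in Nrg-1β1 libraries and 6.17, 5.97 and 4.50 in vehicle libraries, and did not pass (difference 1.56, adjusted p = 0.0651, limma). The core proteins Uqcrc1 and Uqcrc2 and the Rieske iron-sulfur protein gene Uqcrfs1 differed by 0.44, 0.45 and 0.15, and Uqcrb, a ubiquinone-binding subunit, by -0.44. The assembly factors of complexes I and III together, 11 genes, had a median of 0.12 with 7 positive, and 0.38 was the median of the 82 subunits.

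In complex IV, cytochrome c oxidase, 1 of 16 members rose, with a median of 0.40 and 11 positive. Cox5a, an early-assembling structural subunit, had log2 values of 8.17, 8.15 and 7.56 in Nrg-1β1 libraries and 6.69, 6.40 and 5.10 in vehicle libraries (difference 1.90 ± 0.38, SE, adjusted p = 0.0194, limma). Cox5b, a zinc-binding subunit, had 7.45, 7.55 and 8.19 in Nrg-1β1 libraries and 7.49, 7.03 and 5.03 in vehicle libraries, overlapped and did not pass (difference 1.21, adjusted p = 0.248, limma). Vehicle library 3 was the lowest of the 6 in both genes. Cox7c and Cox6c differed by 1.42 and 1.23 and did not pass. Cox4i1, the regulatory subunit that binds adenine nucleotides, had 11.08, 11.54 and 11.59 in Nrg-1β1 libraries and 11.88, 10.47 and 10.56 in vehicle libraries. Vehicle library 1 lay above all Nrg-1β1 libraries there, as it did for Cox8a and Cox6a1, which differed by 0.12 and -0.33.

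Several complex IV subunits exist as a general form and a tissue form. The general forms Cox4i1, Cox6a1, Cox6b1, Cox7a2 and Cox8a differed by 0.43, -0.33, 0.63, 1.06 and 0.12, and Cox7a2l, which joins complexes III and IV into supercomplexes, by -0.17. None passed. The lung form Cox4i2 had 1, 1 and 1 reads in Nrg-1β1 libraries and 70, 4 and 49 in vehicle libraries. The muscle forms Cox6a2, Cox7a1 and Cox8b had 9, 3 and 2 reads over the Nrg-1β1 libraries together and 249, 134 and 280 over the far deeper vehicle libraries, and the testis form Cox6b2 had 6 over the Nrg-1β1 and 507 over the vehicle libraries. Their differences of -0.22, 0.36, 0.18, -0.37 and -0.93 (Cox4i2, Cox6a2, Cox7a1, Cox8b, Cox6b2) rest on these few reads, and none passed.

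In complex V, 1 of 17 members rose, with a median of 0.61 and 15 positive. Atp5b, the catalytic beta subunit, had log2 values of 12.97, 12.69 and 11.43 in Nrg-1β1 libraries and 10.56, 10.96 and 10.36 in vehicle libraries (difference 1.74 ± 0.40, SE, adjusted p = 0.0415, limma). Its reads were many, 1549, 1290 and 907 in Nrg-1β1 libraries and 24859, 642 and 21594 in vehicle libraries. The alpha subunit gene Atp5a1, whose product alternates with the beta subunit in the catalytic ring, had 10.38, 10.36 and 10.74 in Nrg-1β1 libraries and 10.34, 10.10 and 10.18 in vehicle libraries (difference 0.29, 95% interval -0.32 to 0.89). The partners of the ring thus had differences of unlike size, and this contrast was not tested. Atp5c1, the rotor shaft, differed by 1.08 and did not pass (adjusted p = 0.122, limma). The c-ring proteins come from 3 genes with the same mature product, and Atp5g1, Atp5g2 and Atp5g3 differed by 0.30, 1.07 and 0.25.

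Among the small membrane subunits of complex V, Atp5k, which supports dimers of the enzyme, had 6.44, 4.88 and 9.76 in Nrg-1β1 libraries and 3.73, 7.72 and 2.97 in vehicle libraries, from 16, 5 and 284 reads in Nrg-1β1 libraries and 153, 67 and 63 in vehicle libraries. Its groups overlapped (difference 2.22 ± 1.02, SE, adjusted p = 0.361, limma). Atp5md, another dimer subunit, had 5.50, 5.64 and 5.80 in Nrg-1β1 libraries and 3.56, 4.99 and 2.28 in vehicle libraries (difference 2.04, adjusted p = 0.098, limma). The lowest members were Atp5e and Atp5j, the epsilon subunit and coupling factor 6, at -0.17 and -0.04.

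**Figure D2:**
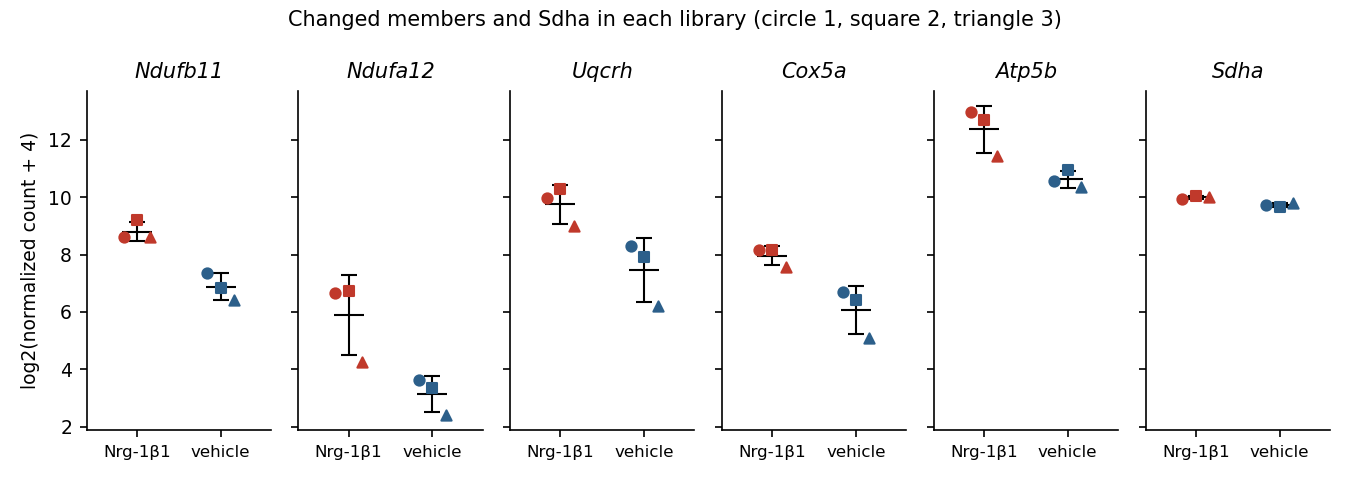
Log2(normalized count + 4) of the 5 members that rose and of Sdha in each library, Nrg-1β1 in red and vehicle in blue, with bars for the mean and SD (n = 3 each). The groups do not overlap in any of the 6 genes, while the mean difference is 1.74 to 2.76 in the 5 and 0.26 in Sdha.

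The level of the members differed between the vehicle libraries, and vehicle library 1 was the highest of the vehicle libraries in 71 of the 95. With the mean over 6 libraries taken off each gene, the median of the 95 members was 0.04, 0.18 and 0.39 in Nrg-1β1 libraries 1 to 3 and 0.37, -0.42 and -0.58 in vehicle libraries 1 to 3. Vehicle library 1 was therefore at the level of the Nrg-1β1 libraries, and it was the highest of all 6 in 37 members. Vehicle library 3 was the lowest of all 6 in 40 members and vehicle library 2 in 28. Over the members the median SD between replicates was 0.45 in Nrg-1β1 and 0.74 in vehicle, where over all genes it was 0.55 in Nrg-1β1 and 0.34 in vehicle.

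As a share of all reads, the members took 0.941%, 0.901% and 0.803% in the Nrg-1β1 libraries and 0.670%, 0.528% and 0.483% in the vehicle libraries, without overlap. Atp5b alone took 0.273%, 0.195% and 0.0683% in the Nrg-1β1 libraries and 0.0341%, 0.0597% and 0.0459% in the vehicle libraries. Without Atp5b the other 94 genes took 0.667%, 0.706% and 0.735% in Nrg-1β1 libraries and 0.636%, 0.468% and 0.437% in vehicle libraries, still without overlap. The denominator mattered, because the 15 transcripts of the mitochondrial chromosome took 20.8%, 29.96% and 18.4% of reads in Nrg-1β1 libraries and 47.4%, 28.3% and 31.3% in vehicle libraries. Of the reads outside that chromosome the members took 1.19%, 1.29% and 0.984% in Nrg-1β1 libraries and 1.27%, 0.736% and 0.703% in vehicle libraries, so that vehicle library 1 then lay within the Nrg-1β1 range. With both Atp5b and the mitochondrial chromosome left out, the shares were 0.843%, 1.01% and 0.900% in Nrg-1β1 libraries and 1.21%, 0.653% and 0.636% in vehicle libraries. Vehicle library 1 then lay above all Nrg-1β1 libraries, and the means of 0.917% ± 0.084 in Nrg-1β1 and 0.832% ± 0.325 in vehicle (SD, n = 3 each) differed by less than the vehicle spread. Of the mitochondrially encoded partners, mt-Co1, the catalytic subunit of complex IV, differed by -0.70 (adjusted p = 0.828, limma) and mt-Atp6, the proton channel of complex V, by -1.22 (adjusted p = 0.551).

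**Figure D3:**
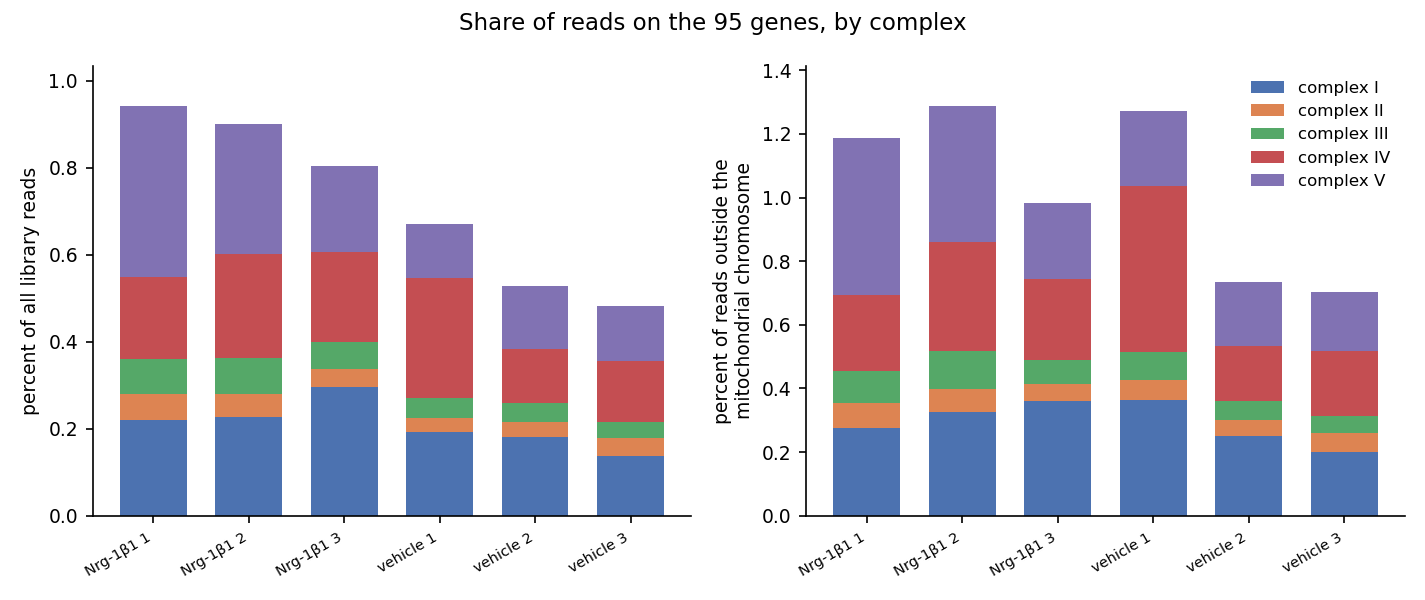
Share of reads (percent, stacked by complex) taken by the 95 genes in each library, of all library reads on the left and of reads outside the mitochondrial chromosome on the right. On the left the Nrg-1β1 libraries reach 0.803% to 0.941% and the vehicle libraries 0.483% to 0.670%; on the right vehicle library 1 reaches 1.27%, within the Nrg-1β1 range.

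Many respiratory chain genes have processed pseudogenes, and reads from a gene and a near-identical copy may be split or lost in counting. Of 94 members with a coding transcript in GENCODE M21, 37 had at least 1 run of 50 bases that is also found in an annotated pseudogene, and 57 had none. All 5 members that rose were among the 37. The share of such runs was 9.55% for Ndufb11, 26.2% for Ndufa12, 7.14% for Uqcrh, 3.36% for Cox5a and 0.857% for Atp5b, and it reached 68.5% for Atp5l. The 37 had a median difference of 0.99, with 31 positive and 16 not overlapping above, and at an unadjusted p under 0.05 19 were higher and 0 lower (limma). The 57 had a median of 0.21, with 39 positive, 4 not overlapping above, 1 below and 0 called (limma), of which 6 were higher and 1 was lower at an unadjusted p under 0.05; voom called 0. Among other analysed genes the medians were 0.10 for 3791 genes with such a run, 55.8% of them positive, and -0.03 for 13362 without, 48.2% of them positive. All 3 Nrg-1β1 libraries lay above all 3 vehicle libraries in 8.89% of the other genes with a shared run and in 7.18% of those without, and below them in 8.36% and 11.8%.

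The split was clearest in vehicle library 3. There the median centred value was -1.18 for the 37 members with a shared run and -0.30 for the 57 without, and that library was the lowest of the 6 in 29 of the 37. Without vehicle library 3 the medians of the 2 classes were 0.59 and 0.04. With vehicle library 2 as the sole vehicle library they were 0.54 and 0.65, so the order of the classes turned. The 4 members that share no run and lay above without overlap were Ndufa10, an accessory subunit of complex I, Sdhc, Atp5a1 and Sdha, with differences of 1.04, 0.96, 0.29 and 0.26. The split was made after the values had been seen, and the part of shared sequence in the differences was not tested.

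**Figure D4:**
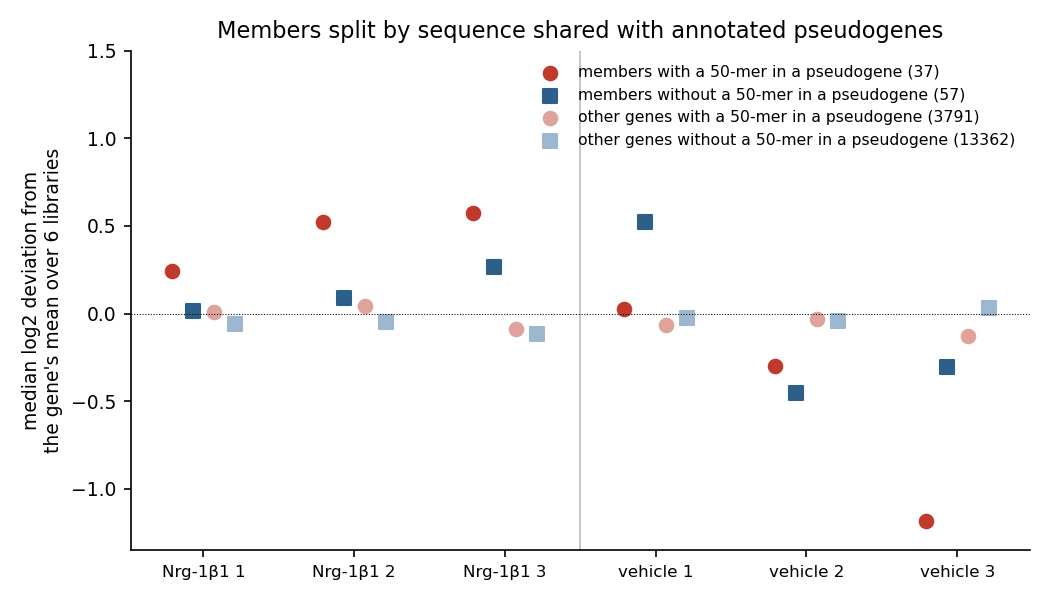
Median log2 deviation from each gene's mean over the 6 libraries, for members (dark) and other analysed genes (pale), with (circles) and without (squares) a 50-base run in an annotated pseudogene; numbers of genes in brackets. Members with a shared run lie at -1.18 in vehicle library 3, while other genes with a shared run stay within 0.13 of 0 in every library.

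Genes outside the naming rule that work beside the complexes, or belong to them as Cyc1 does to complex III, did not pass. In 7 lists covering assembly, electron carriers, transport and regulators, 89 genes that are not members had a median difference of 0.07 with 52 positive, and 0 rose and 0 fell (limma); 10 were higher and 0 lower at an unadjusted p under 0.05, and voom, which kept 43 of them, called 0. Among the 11 complex I assembly genes the smallest p belonged to Tmem126b, at -1.13. Of the 23 complex IV assembly and copper delivery genes Cox14 had the smallest p and a difference of 1.11, with log2 values of 7.61, 7.51 and 7.26 in Nrg-1β1 libraries and 7.01, 5.90 and 6.15 in vehicle libraries (adjusted p = 0.119, limma). Atpif1, which encodes the ATP synthase inhibitor, differed by 0.75, and Coq10a, a ubiquinone-binding protein gene, by 1.02. Vdac1, the channel of the outer membrane, had 10.44, 10.66 and 9.02 in Nrg-1β1 libraries and 8.97, 8.83 and 8.21 in vehicle libraries (difference 1.37, adjusted p = 0.0791, limma). Of 14 transcription regulators, Ppargc1b, a coactivator of mitochondrial genes, had the smallest p, with a difference of 1.49 (adjusted p = 0.154, limma), and the median of that list was -0.02. Among the 10 genes of complexes II and III outside the prefixes or shared with the members, the smallest p was that of Uqcc2, given above.

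Markers of other cell types moved with the groups. Of 10 microglia markers 7 fell, and all 10 were lower in every Nrg-1β1 library than in every vehicle library; the list took 0.0842% to 0.0976% of reads in Nrg-1β1 libraries and 0.228% to 0.275% in vehicle libraries. Of 10 endothelial markers 8 fell, and the list took 0.00354% to 0.00422% in Nrg-1β1 libraries and 0.0195% to 0.110% in vehicle libraries. Of 8 choroid plexus and ependymal markers 4 fell, at 0.00498% to 0.00708% in Nrg-1β1 libraries and 0.0462% to 0.185% in vehicle libraries, with Kcne2 at 0 reads in all Nrg-1β1 libraries. Of 10 pericyte and smooth muscle markers 1 fell, at 0.00226% to 0.00388% in Nrg-1β1 libraries and 0.00581% to 0.0178% in vehicle libraries, with Kcnj8 and Des at 0 reads in Nrg-1β1. All 4 erythroid markers with a value fell, at 0.0109% to 0.0681% in Nrg-1β1 libraries and 0.0991% to 0.220% in vehicle libraries.

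Astrocyte, neuron and oligodendrocyte markers did not pass (limma). The difference was above 0 in 8 of 8 astrocyte markers, 4 of them at an unadjusted p under 0.05, and the list took 1.17% to 1.61% of reads in Nrg-1β1 libraries and 0.622% to 1.14% in vehicle libraries. It was above 0 in 9 of 10 neuron markers, which took 0.547% to 0.674% in Nrg-1β1 libraries and 0.410% to 0.669% in vehicle libraries. It was above 0 in 4 of 10 oligodendrocyte markers, which took 3.24% to 4.30% in Nrg-1β1 libraries and 2.82% to 5.35% in vehicle libraries. Of the 13 progenitor markers 1 rose, Sox1, at 1.96 (adjusted p = 0.0194, limma), and Nes did not pass, at -1.65. The difference was above 0 in 7 of the 13, and 2 were higher and 3 lower at an unadjusted p under 0.05 (limma). The part of cell make-up in the members' differences was not tested.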

How the data were processed

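RNA-seq was available for 6 libraries, 3 from Nrg-1β1 and 3 from vehicle mice, in 1 table of 27102 genes, of which 6779 were blank and 20323 were analysed. The deposited log2 values equal log2(normalized count + 4), with whole reads times 1 step per library; this was read from the values, where 100% were whole within 0.02 of a read. Per the submitters' processing notes, Trimmomatic and Bowtie2 were used; for the versions, counter, build, strand, normalization and filter the entry is "not given in the sources used here".

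The members, gene lists and comparisons were chosen with earlier results of these data known. The test was limma 3.58.1 (R 4.3.3) with an intensity trend on the deposited log2 values, group as the only term, fitted on all 20323 genes, with Benjamini-Hochberg adjustment at 0.05. Negative binomial count models were not run on the recovered reads; limma-voom was. The script was tested on simulated data. Alternatives were quantile normalization, centring on library medians, an offset of 1, a mean normalized count of at least 50, no trend, limma-voom, the replicate block, a depth term (over or under 10000000 reads) and each library left out. Share denominators were added after seeing the data.

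Named genes were every called member, the 2 highest and 2 lowest of each complex, a fixed core set and tissue isoforms; Ndufb9, Ndufa10, Ndufa1, Cox7b, Atp5l, mt-Co1, mt-Atp6, Xist and Ddx3y were chosen after their values were seen. A gene that the rule names is not reported here. Promoter windows are from RefSeq (GRCm38.p6), and shared runs of 50 bases are from GENCODE M21 transcripts; neither is known to be the authors' build. The table's Ndufb4 row carries the gene number of the copy Ndufb4c. Levels are not per length and are not compared between genes. Each library is treated as 1 animal. Floors are 3 reads over a group, and floors cover counting error only, since reads carry no molecular identifiers.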

Additional observations from a re-analysis of the deposited data

How the results depend on the processing

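For the 5 called members, calls depended on the processing. The 5 called members stayed positive under every alternative in which they were fitted, and 0 members were called lower under any. Their sign was fixed in most alternatives. All Nrg-1β1 libraries lay above all vehicle libraries in these 5 genes, so leaving out libraries or adding the depth term could not turn it. The fits without the trend, with the count filter and with the replicate block keep the main difference by design. Members called higher numbered 1 with quantile normalization, 15 after centring of each library and 3 with an offset of 1. They numbered 1 of 70 where genes under a mean of 50 normalized counts were dropped. All genes called higher numbered 12, 335, 49 and 11 of 6731 in these fits, against 89 in the main fit. The all-gene median difference was 0.25 after centring, against 0.03. Members called higher numbered 0 without the trend, 0 of 70 with limma-voom and 0 with the depth term. Counts over all genes are not given here for these fits, the replicate block or the leave-out fits. Those member counts therefore lack a background. Since both deep libraries are vehicle, the depth term also sets Nrg-1β1 against vehicle library 2. Leaving out 1 library gave 0 to 4 members and a member median of 0.20 to 0.70. With the replicate block 14 members were called, and 1 gene of the related lists. The labels do not say that the numbers pair the animals. Same-numbered libraries deviated from their group means with correlations of -0.13, -0.0017 and -0.18, and not every library correlated best with its own number. Such deviations within groups of 3 cannot settle whether animals were paired. Genes of the related lists called higher numbered 2 with centring. The members' share of library reads was higher in Nrg-1β1 by 0.321 percentage points, by 0.189 without Atp5b, by 0.249 of reads outside the mitochondrial chromosome and by 0.0851 with both left out. The causes were not tested. Over single genes and alternatives, 590 values were classed as unchanged, 55 lost the call, 17 gained it, 32 moved and none reversed a call. Unchanged means that a called gene kept its call, or that an uncalled gene stayed uncalled and within its replicate SD of the main difference. The sign was not checked for uncalled genes. In the fits that keep the main difference by design an uncalled gene could not move, so part of the unchanged values was fixed in advance. At the lowest depth 1 read is worth 5.17 normalized counts, which limits members with few reads.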
